A study of Mus musculus with 14 samples.

Results

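The enzymes that remove acetyl groups from histones, and the corepressor proteins that carry them to DNA, were described here in mouse germinal centre B cells that had lost 1 or both functional copies of Crebbp, the gene of an acetyltransferase that works in the opposite direction. The members were Hdac1, Hdac2, Hdac3, Hdac4, Hdac5, Hdac7, Hdac9, Ncor1 and Tbl1xr1, and every probe set annotated to one of these 9 genes alone was taken. This gave 19 of the 45101 probe sets on the array, for 8 of the 9 genes, out of 18194 genes with a probe set of their own. The expression of Ncor1 was not analysed here, because no probe set was named to it alone in the annotation used.

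Expression was measured with Affymetrix whole-genome mouse arrays, 1 for each of 14 mice. KO mice carried 2 floxed Crebbp alleles (Crebbpfl/fl Cg1-Cre, n = 5, 3 males), HET mice carried 1 (Crebbpfl/+ Cg1-Cre, n = 5, 2 males) and WT mice 0 (Crebbp+/+ Cg1-Cre, n = 4, 1 male). All of them, the WT mice included, carried the Cg1-Cre allele, which is switched on in B cells after activation and recombines only floxed DNA. The mice were 8 to 12 weeks old, of C57BL/6x129Sv background, were immunised on days 0 and 5 with sheep erythrocytes and killed on day 12, when splenic B220+CD95+PNA+ cells were sorted from each mouse separately. The comparisons ask whether the genes of the deacetylase machinery differ in expression when the opposing acetyltransferase is reduced.

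Histone deacetylases fall into classes. HDAC1, HDAC2 and HDAC3 are class I enzymes that work in large nuclear complexes: HDAC1 and HDAC2 in the SIN3, NuRD and CoREST complexes, and HDAC3 in the complexes built on NCOR corepressors, which also hold TBL1X or its relative TBL1XR1 and GPS2. HDAC4, HDAC5, HDAC7 and HDAC9 are class IIa proteins. They have little catalytic activity of their own, bind MEF2 transcription factors, and leave the nucleus bound to 14-3-3 proteins when kinases phosphorylate them. In germinal centre B cells the repressor BCL6 recruits NCOR corepressors with HDAC3 to enhancers that CREBBP acetylates.

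The values are log2 intensities, so a difference of 1 is a doubling of signal. Of the 19 member probe sets, 18 had a mean over the 14 arrays above 6.43, the median of all probe sets other than the array's controls, and were tested. The exception was 1 of the 6 Tbl1xr1 probe sets, 1457186_at, with a mean of 4.82. Levels are not compared between genes, since probes differ in brightness. Changes come from limma with sex as a covariate, fitted to all 14 arrays and 22518 probe sets. Benjamini-Hochberg adjustment ran over all of these probe sets, and an adjusted p under 0.05 counts as a call.

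All 10 marker genes of germinal centre B cells with a probe set, such as Bcl6, were above the median. Their mean log2 intensity was 12.00 to 12.24 in KO, 12.05 to 12.19 in HET and 12.12 to 12.25 in WT arrays. Above the median were also 2 of 7 T cell markers, 4 of 9 myeloid and dendritic cell markers, 4 of 5 naive and memory B cell markers and 5 of 6 plasma cell markers, but 0 of 4 erythroid markers. The mean levels of the plasma cell markers were 9.32 to 9.66 in KO, 9.42 to 9.72 in HET and 9.49 to 9.66 in WT arrays, and the ranges of the other lists overlapped between genotypes too. Single markers differed without passing: an unadjusted p under 0.05 in KO against WT was reached by 4 of 10 tested plasma cell probe sets (40%) and 2 of 6 naive and memory B cell probe sets (33.3%), against 9.85% of all tested probe sets. They were 3 probe sets of Sdc1, a surface proteoglycan of plasma cells, at 0.37 to 0.81 (limma adjusted p from 0.0720 to 0.205), Irf4, a transcription factor of activated B cells and plasma cells, at -0.30 (adjusted p = 0.156), and both probe sets of Fcer2a, an IgE receptor of naive B cells, at -0.36 and -0.39 (adjusted p = 0.491 and 0.426). Of the 10 plasma cell probe sets only the 3 of Sdc1 had positive changes, against 49.5% of all tested probe sets. The median change of these 10 was -0.14. An unadjusted p under 0.05 was also reached by 2 of 16 germinal centre probe sets (12.5%). These were Cd79a at -0.18 and Fas at -0.22 (limma adjusted p = 0.258 and 0.458). In the myeloid and dendritic cell list 1 of 4 reached it (25%), Flt3 at -0.35 (adjusted p = 0.456), and in the T cell list 0 of 2. All these genes were named after their values were seen, and their part in the values of the deacetylases and Tbl1xr1 was not tested. Crebbp was lower in KO than in WT cells on its probe set 1436983_at, by -0.86 (SE 0.09, limma adjusted p = 0.000822), and 2 of its 4 probe sets passed. In HET against WT the Crebbp change was -0.34 (SE 0.09) on 1436983_at and from -0.18 to -0.12 on its other probe sets, and none passed. The paralogue Ep300 differed in KO against WT by -0.01 (SE 0.13, adjusted p = 0.995). KO 3 resembled the other mice least, with a median correlation of 0.975, while for the rest this ran from 0.983 to 0.988, and results that rest on it are given with and without it.

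No probe set of the deacetylases or of Tbl1xr1 passed the test in any genotype comparison. In KO against WT, limma called 0 of the 18, where 0.893% of all tested probe sets were called. An unadjusted p under 0.05 was reached by 2 of the 18 (11.1%), both of Hdac7, against 9.85% of all tested probe sets. Positive changes were seen for 5 of the 18, against 49.5% of all tested probe sets, and the median change was -0.10, against -0.0016 over all of them. The probe sets of one gene share their transcript and several of those of different genes moved together between arrays, so these 18 values are not independent.

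**Figure D1:**
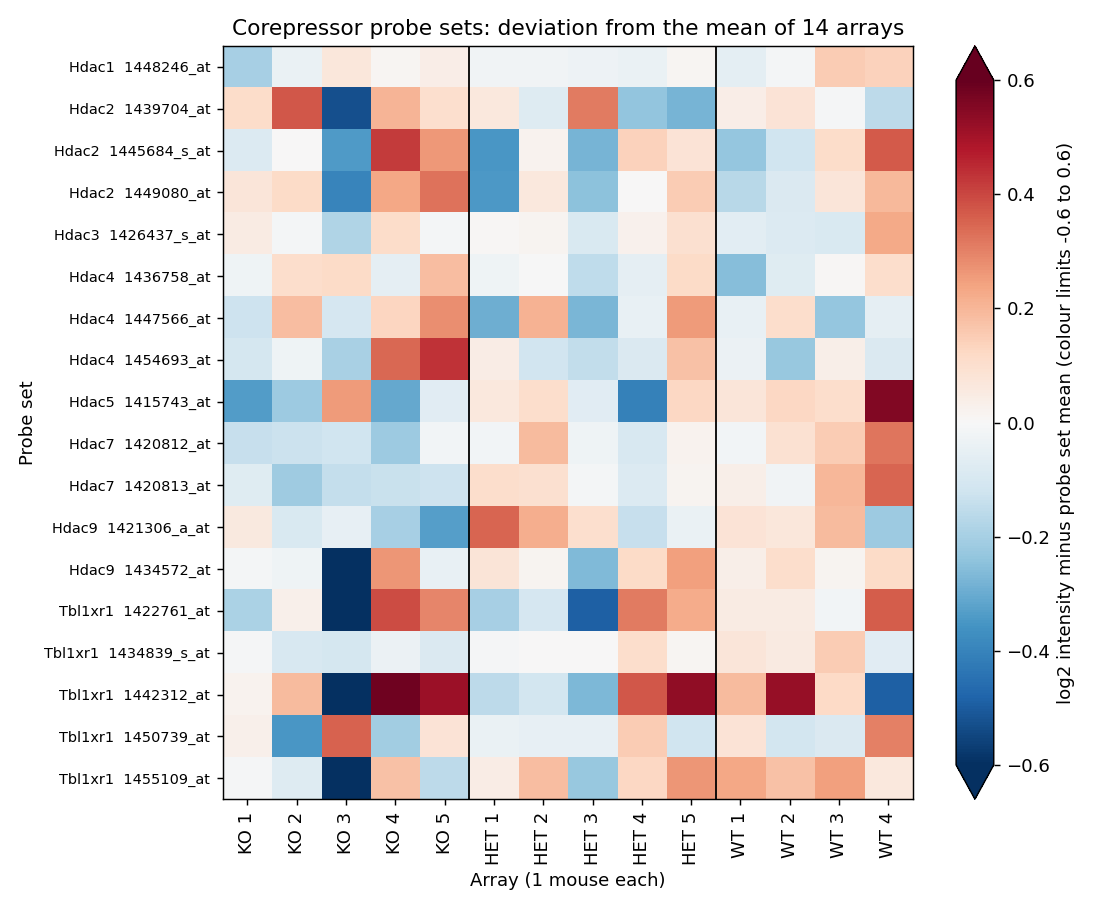
Deviation of each tested probe set from its own mean over the 14 arrays, in log2 units, with 1 column per mouse (KO left, HET centre, WT right) and 1 row per probe set. Both Hdac7 rows are below their mean in all 5 KO arrays, and KO 3 lies beyond the lower colour limit of -0.6 for 3 of the 5 Tbl1xr1 rows and for Hdac9 probe set 1434572_at.

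Hdac7, a class IIa deacetylase expressed in lymphocytes, was the member with the smallest p. Its brighter probe set, 1420813_at, had 10.50, 10.36, 10.43, 10.44 and 10.45 in KO 1 to KO 5, then 10.68, 10.67, 10.56, 10.49 and 10.59 in HET 1 to HET 5, and 10.61, 10.55, 10.77 and 10.92 in WT 1 to WT 4. Every KO array was below every WT array, while HET overlapped both. The means were 10.44 ± 0.05 in KO (SD, n = 5), 10.60 ± 0.08 in HET (SD, n = 5) and 10.71 ± 0.17 in WT (SD, n = 4). The KO change was -0.30 (SE 0.08), or 0.814 of the WT signal with a 95% interval of 0.721 to 0.919, and its limma adjusted p = 0.132 did not pass. In bulk RNA, a lower level in every cell and a smaller share of cells with a high level cannot be told apart.

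The other Hdac7 probe set, 1420812_at, gave a similar picture at lower signal. Its values were 7.87, 7.88, 7.89, 7.79 and 7.99 in KO, then 7.99, 8.20, 7.98, 7.91 and 8.03 in HET, and 7.99, 8.10, 8.16 and 8.33 in WT arrays. Again each KO array lay below each WT array, the highest KO and the lowest WT value being equal at 2 decimals, and HET overlapped both. The KO change was -0.28 (SE 0.08, adjusted p = 0.191), or 0.826 of WT with a 95% interval of 0.728 to 0.938. These were the only 2 of the 18 probe sets with every KO array below every WT array, which held for 2.68% of all tested probe sets. The reverse, every KO array above every WT array, held for 0 of the 18 and for 2.34% of all.

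The HET means lay between those of KO and WT for Hdac7, but their distance from WT depended on 1 mouse. Against WT the change was -0.13 on both probe sets (SE 0.08 for each, adjusted p = 1.00 for each). Without WT 4 it was -0.04 on 1420813_at and -0.05 on 1420812_at, and among females alone -0.04 and -0.01. KO against HET gave -0.17 (SE 0.07) on 1420813_at and -0.15 (SE 0.08) on 1420812_at, with adjusted p = 1.00 for each. These comparisons share arrays with KO against WT. Per floxed allele, Hdac7 changed by -0.15 (SE 0.04, limma adjusted p = 0.0889) on 1420813_at and by -0.14 (SE 0.04, adjusted p = 0.136) on 1420812_at. When each gene was represented by its brightest probe set, which left 10225 genes to adjust over in place of 22518 probe sets, the same trend on 1420813_at passed, with adjusted p = 0.0452. In that setting the trend called 311 of the 10225 genes, against 263 of the 22518 probe sets in the main fit.

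WT 4, the only WT male, had the highest Hdac7 value on both probe sets. Without it the KO change was -0.20 on 1420813_at (limma adjusted p = 0.405) and -0.18 on 1420812_at (adjusted p = 0.504). Among females alone, KO 3 and KO 4 had 10.43 and 10.44 on 1420813_at, against 10.61, 10.55 and 10.77 in WT 1 to WT 3. The change was -0.21 (limma adjusted p = 0.503). Since every KO array was below every WT array in the full set, these females had to separate too. WT 4 also had the highest mean level of the 9 myeloid and dendritic cell markers, 7.50, against 6.58 to 6.83 in the other WT mice, 6.69 to 7.22 in KO and 6.57 to 7.24 in HET mice, with Csf1r, Itgam, Itgax, Cd14 and Adgre1 below the median intensity over all arrays. Their part in the Hdac7 difference was not tested.

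**Figure D2:**
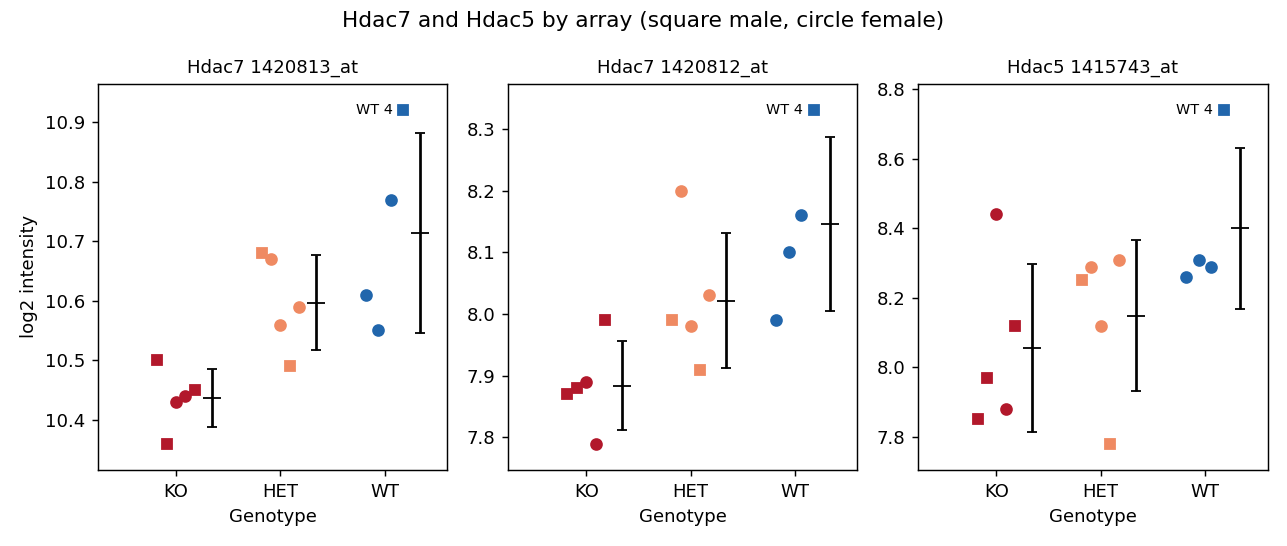
Log2 intensity of both Hdac7 probe sets and of the Hdac5 probe set in each mouse, for KO, HET and WT, with squares for males and circles for females and the mean ± SD drawn in black to the right of each group. On both Hdac7 probe sets the 5 KO points lie below the 4 WT points, while on Hdac5 the groups overlap and WT 4 stands above all other mice.

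Hdac5, another class IIa member, had values of 7.85, 7.97, 8.44, 7.88 and 8.12 in KO, then 8.25, 8.29, 8.12, 7.78 and 8.31 in HET, and 8.26, 8.31, 8.29 and 8.74 in WT arrays on probe set 1415743_at. Of the KO mice 4 lay below all WT mice and KO 3 above 3 of them. The KO change was -0.33 (SE 0.16, limma adjusted p = 0.520), with a 95% interval of 0.631 to 1.00 of the WT signal, and the HET change was -0.24 (SE 0.15, adjusted p = 1.00). Both estimates depended on single mice. Without WT 4 the HET change was -0.06, and among females alone -0.05. In KO it was -0.11 without WT 4 (adjusted p = 0.871) and -0.47 without KO 3 (adjusted p = 0.192).

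Hdac4 had positive changes on all 3 of its probe sets, the opposite sign to the other class IIa members, but none passed. On the brightest, 1454693_at, the values were 9.20, 9.28, 9.11, 9.65 and 9.74 in KO, then 9.35, 9.19, 9.16, 9.22 and 9.48 in HET, and 9.27, 9.08, 9.34 and 9.22 in WT arrays. KO 4 and KO 5 were above every WT array and the other KO arrays fell within the WT range. The KO changes were 0.17 (SE 0.14, adjusted p = 0.807) on this probe set, 0.14 (SE 0.14, adjusted p = 0.861) on 1447566_at and 0.10 (SE 0.09, adjusted p = 0.833) on 1436758_at. The first of these was 0.28 without KO 3 (adjusted p = 0.470), 0.07 without KO 4 (adjusted p = 0.893) and 0.10 without KO 5 (adjusted p = 0.856). The HET changes were from 0.02 to 0.05 with adjusted p = 1.00.

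CREBBP was named for its binding to CREB, the factor that recognises the cyclic AMP response element TGACGTCA and a shorter form, TGACG. The 250 bases before the annotated starts of the members, from RefSeq for GRCm38.p6, were searched on both strands. The full element, which contains the shorter form, was found in 0 of 12 windows of 7 member genes (Hdac2, Hdac4, Hdac5, Hdac7, Hdac9, Ncor1 and Tbl1xr1), against 1.55% of 32851 windows of all genes, and the shorter form in 1 of the 12, against 17.8% of all. That window belongs to Hdac4, with TGACG starting 103 and 51 bases before an annotated start that lies inside the span of the gene. It is shown for these 2 matches, in capitals, beside the window at the outermost annotated start of Hdac7, the member with the smallest p, which holds none. Both are written 5′ to 3′ on the minus strand, and a match of letters is not evidence of binding. The Hdac4 window is chr1:92180342-92180591 and the Hdac7 window chr15:97844503-97844752.
Hdac4: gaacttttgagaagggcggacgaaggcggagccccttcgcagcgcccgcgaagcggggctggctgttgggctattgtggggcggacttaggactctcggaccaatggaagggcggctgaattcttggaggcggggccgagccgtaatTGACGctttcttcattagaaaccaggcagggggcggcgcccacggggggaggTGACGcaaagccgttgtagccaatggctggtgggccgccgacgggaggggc
Hdac7: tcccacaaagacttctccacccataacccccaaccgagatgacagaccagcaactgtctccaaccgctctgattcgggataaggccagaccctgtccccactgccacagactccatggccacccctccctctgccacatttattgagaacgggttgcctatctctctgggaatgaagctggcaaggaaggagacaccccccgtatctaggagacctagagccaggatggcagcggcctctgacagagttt

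Hdac9, a class IIa gene with several splice forms, was read by 2 probe sets that behaved differently between mice. Probe set 1434572_at had 10.59, 10.58, 9.95, 10.87 and 10.56 in KO, then 10.68, 10.62, 10.34, 10.72 and 10.85 in HET, and 10.64, 10.71, 10.62 and 10.72 in WT arrays. The 4 WT values lay close together and the KO values spread on both sides of them, with KO 3 lowest of all. The KO change was -0.20 (SE 0.15, adjusted p = 0.780), with -0.01 without KO 3 (adjusted p = 0.984) and -0.37 without KO 4 (adjusted p = 0.307). On 1421306_a_at, where KO 5 was lowest at 7.33 and HET 1 highest at 8.01, the change was -0.13 in KO (SE 0.12, adjusted p = 0.847) and 0.08 in HET (SE 0.12, adjusted p = 1.00).

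Among the class I enzymes Hdac1 and Hdac3 gave the tightest values. Hdac1, a catalytic subunit of the SIN3, NuRD and CoREST complexes, had 11.88, 12.04, 12.15, 12.09 and 12.12 in KO, then 12.06, 12.06, 12.05, 12.04 and 12.09 in HET, and 12.02, 12.07, 12.23 and 12.22 in WT arrays. The genotypes overlapped. The KO change was -0.07 (SE 0.07, limma adjusted p = 0.875) and the HET change -0.07 (SE 0.07, adjusted p = 1.00). The 95% interval for the KO signal ran from 0.851 to 1.06 of WT, and without WT 4 the KO change was -0.01.

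Hdac3, the enzyme of the NCOR complexes, had 9.76, 9.70, 9.53, 9.82 and 9.70 in KO, then 9.72, 9.73, 9.62, 9.74 and 9.81 in HET, and 9.65, 9.63, 9.62 and 9.94 in WT arrays on probe set 1426437_s_at. All 3 groups overlapped, and WT 4 was above all other mice. The KO change was -0.04 (SE 0.08, adjusted p = 0.955), with an interval of 0.862 to 1.10 of WT, and the HET change 0.00 (SE 0.08, adjusted p = 1.00). Without WT 4 the sign of the KO change turned, at 0.05 (adjusted p = 0.893).

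Hdac2, the close relative and partner of Hdac1, had 3 probe sets with KO changes of 0.03 (SE 0.15, adjusted p = 0.981) on 1449080_at, -0.01 (SE 0.17, adjusted p = 0.994) on 1445684_s_at and 0.04 (SE 0.17, adjusted p = 0.979) on 1439704_at. On 1449080_at the values were 10.32, 10.36, 9.85, 10.48 and 10.57 in KO, then 9.90 to 10.40 in HET, and 10.08, 10.16, 10.32 and 10.44 in WT arrays. KO 3 was again the lowest mouse, and the groups overlapped. The HET changes on the 3 probe sets were between -0.13 and -0.04, with adjusted p = 1.00. Without KO 3 the KO change on 1449080_at was 0.19 (adjusted p = 0.659) and that on 1439704_at 0.25 (adjusted p = 0.512).

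Tbl1xr1 encodes a subunit of the NCOR complexes that is needed for exchange of corepressors, and it was the member whose probe sets differed most from each other. Its brightest, 1434839_s_at, had 12.36, 12.27, 12.26, 12.33 and 12.28 in KO, then 12.36, 12.37, 12.37, 12.47 and 12.38 in HET, and 12.44, 12.42, 12.52 and 12.30 in WT arrays. KO lay below WT except for WT 4, which fell among the KO arrays. The change was -0.11 in KO (SE 0.06, limma adjusted p = 0.637) and -0.03 in HET (SE 0.06, adjusted p = 1.00). Without WT 4 the KO change was -0.17 (adjusted p = 0.366).

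On Tbl1xr1 probe set 1455109_at the KO change was the largest of any member, -0.44 (SE 0.20, adjusted p = 0.514), and 1 mouse set its size. The values were 10.09, 10.02, 9.05, 10.27 and 9.94 in KO, then 10.14, 10.28, 9.87, 10.22 and 10.36 in HET, and 10.33, 10.27, 10.34 and 10.16 in WT arrays. KO 3, at 9.05, stood far below all others, and without it the change was -0.14 (adjusted p = 0.709). Probe set 1442312_at had 8.90, 9.07, 6.86, 9.46 and 9.39 in KO, then 8.72, 8.77, 8.61, 9.25 and 9.41 in HET, and 9.07, 9.40, 9.00 and 8.39 in WT arrays. Here the change was -0.30 (SE 0.46, adjusted p = 0.932) with KO 3 and 0.38 without it (adjusted p = 0.605), so the sign rested on that mouse. Without WT 4, the lowest WT array here, the change was -0.73 (adjusted p = 0.686).

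The 2 further tested Tbl1xr1 probe sets did not pass either. On 1422761_at the KO change was -0.23 (SE 0.21, adjusted p = 0.843) and KO 3 was the lowest mouse at 7.28, while on 1450739_at the change was -0.09 (SE 0.14, adjusted p = 0.932) and KO 3 was the highest at 9.56. Thus 1 mouse was at opposite ends of the range on probe sets of 1 gene. Without KO 3 the change was -0.02 on 1422761_at and -0.25 on 1450739_at, while without KO 4 it was -0.45 on 1422761_at (adjusted p = 0.387) and without WT 4 it was 0.03 on 1450739_at. None of these passed. The untested probe set 1457186_at averaged 4.90 ± 0.29 in KO (SD, n = 5), 4.59 ± 0.42 in HET (SD, n = 5) and 5.01 ± 0.33 in WT (SD, n = 4).

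**Figure D3:**
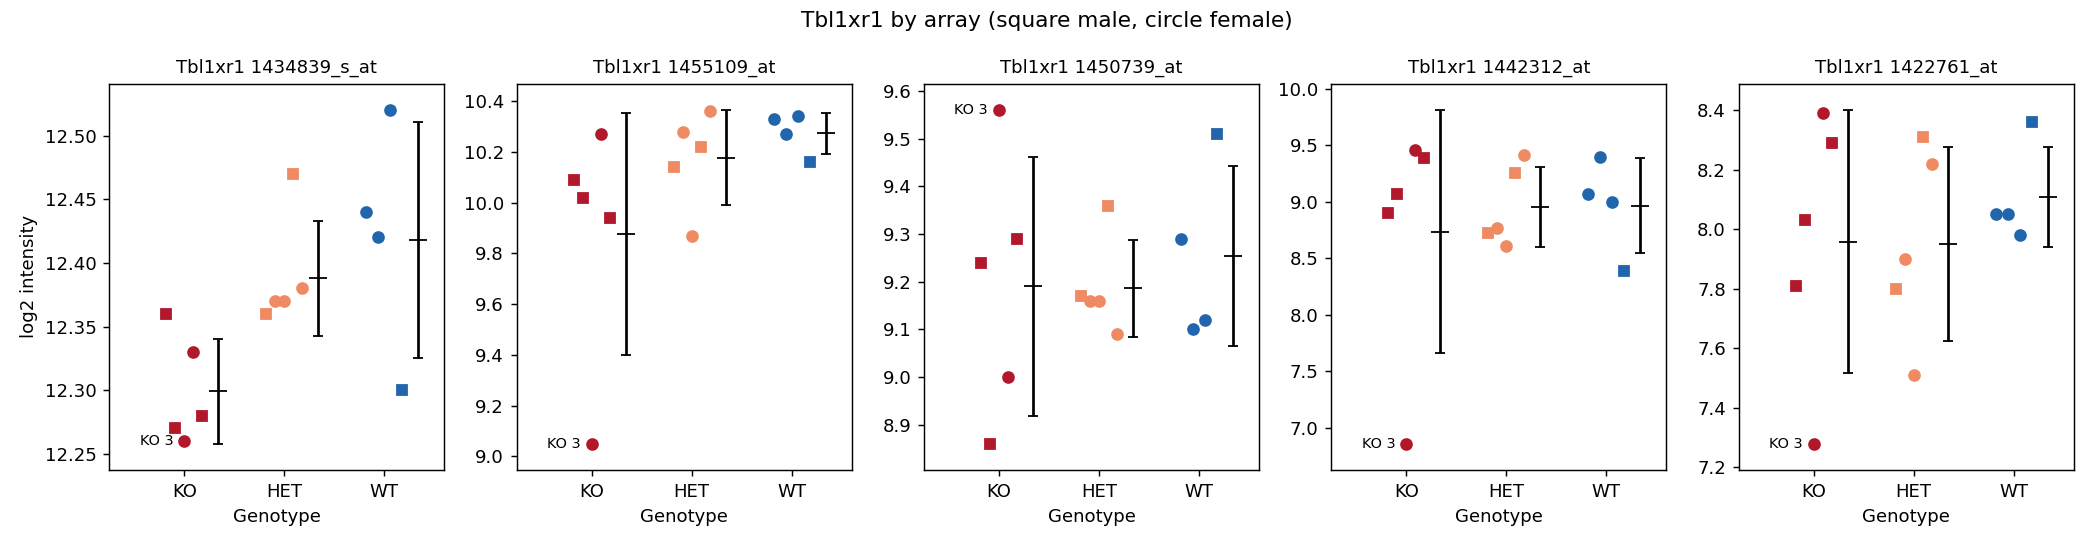
Log2 intensity of the 5 tested Tbl1xr1 probe sets in each mouse, for KO, HET and WT, with squares for males, circles for females, the mean ± SD in black and KO 3 named. KO 3 is far below the other mice on 1455109_at and 1442312_at and above them on 1450739_at.

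The array's control probe sets at both ends of the Actb and Gapdh transcripts give a measure of RNA quality for KO 3. The 3′ probe set exceeded the 5′ one by 0.82 log2 units for Actb in KO 3, the same as in HET 3 and HET 4, against 0.54 to 0.75 in the 11 other mice. For Gapdh it exceeded it by 0.74 in KO 3, the highest of the 14, against 0.59 to 0.72 in the others. KO 3 therefore had the largest or joint largest difference between transcript ends. Its part in the Tbl1xr1, Hdac9 and Hdac2 values was not tested.

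In HET against WT limma called 0 of the 18 probe sets, with 0% called over all tested probe sets, and 0 of the 18 reached an unadjusted p under 0.05, against 2% of all. Positive changes numbered 4 of 18, against 48.9% of all, with a median of -0.06. Every HET array was above every WT array for 0 of the 18, against 0.759% of all, and below for 0 of the 18, against 0.382%. KO against HET also gave 0 calls, with 0% called over all tested probe sets. There 1 probe set of the 18 (5.56%), Hdac7 1420813_at, reached an unadjusted p under 0.05, against 4.62% of all. Positive changes numbered 7 of 18, against 49.8%, and the groups separated for 0 of the 18 in either direction, against 0.466% with KO above and 0.524% with KO below.

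The trend over the number of floxed alleles called 0 of the 18, against 1.17% of all tested probe sets. An unadjusted p under 0.05 in the trend was reached by 3 of the 18 (16.7%), namely both Hdac7 probe sets and Tbl1xr1 1455109_at, against 10.7% of all. The change per allele was positive for 5 of the 18, against 49.6% of all. For that Tbl1xr1 probe set the trend was -0.22 per allele (SE 0.10, adjusted p = 0.437), and -0.07 without KO 3.

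**Figure D4:**
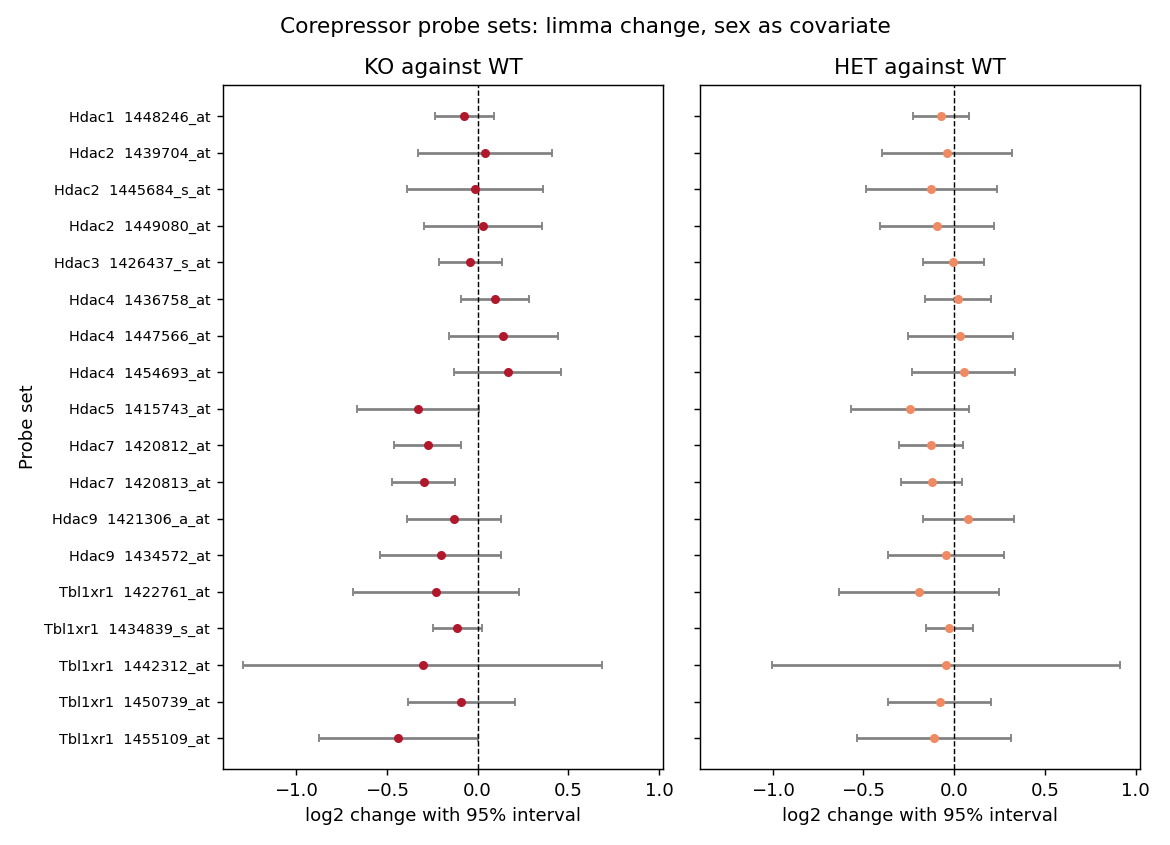
Limma log2 change of the 18 tested probe sets for KO against WT (left) and HET against WT (right), with points for estimates and bars for 95% intervals not adjusted for the number of tests. In KO the interval lies below 0 for the 2 Hdac7 probe sets only, and in HET every interval includes 0.

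Sex was the other labelled factor. Limma called 0 of the 18 probe sets in males against females, against 0.0488% of all tested probe sets, and 0 of the 18 reached an unadjusted p under 0.05, against 6.61% of all. Males had the higher value on 13 of the 18, against 57.7% of all. The largest difference was 0.23 (SE 0.17, adjusted p = 0.780) on Tbl1xr1 1422761_at, with a 95% interval of -0.14 to 0.59. Hdac7 1420813_at differed by 0.06 (SE 0.07, adjusted p = 0.848).

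Several members varied together between mice, which is given as a description over the 14 arrays, whose members share genotype, array and RNA preparation. The 2 Hdac7 probe sets had Pearson r = 0.87, and r = 0.71 after the mean of each genotype was removed. Hdac9 1434572_at followed Tbl1xr1 1455109_at with r = 0.92, a pair for which KO 3 was lowest on both. Hdac5 and Hdac7 1420812_at had r = 0.77. Within Tbl1xr1 the probe sets 1442312_at and 1450739_at had r = -0.63. For this pair KO 3 was the lowest mouse on the first, at 6.86, and the highest on the second, at 9.56.

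The genes most like Hdac7 over the 14 arrays were sought for its probe set 1420813_at. They were Dennd3, a regulator of Rab proteins (Pearson r = 0.96), the cytokine gene Clcf1 (r = 0.95), the transcription factor gene Irf5 (r = 0.94), Akna (r = 0.94) and Ciita, the transactivator of MHC class II genes (r = 0.93). The lowest correlations belonged to the nuclear import gene Ipo8 (r = -0.90), the mitochondrial calcium channel gene Mcu (r = -0.89) and Lgalsl (r = -0.87). After removal of the genotype means these values were from 0.84 to 0.94 for the first 5 genes and from -0.74 to -0.71 for the last 3.

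The rest of the deacetylase machinery, taken from lists of known subunits and partners, held no called probe set in any genotype comparison. Among the remaining deacetylases Hdac6, a cytoplasmic enzyme that acts on tubulin, had a KO change of 0.24 (SE 0.10, limma adjusted p = 0.440), Hdac8 -0.05 (SE 0.11, adjusted p = 0.962) and Hdac10 0.02 (SE 0.13, adjusted p = 0.989). Both Hdac11 probe sets were below the median intensity and were not tested. For the NCOR complex, Gps2 changed by -0.06 (SE 0.08, adjusted p = 0.921) and the 3 probe sets of Tbl1x by -0.05 to 0.00, with adjusted p from 0.920 to 0.998.

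Counted over whole lists in KO against WT, 0 of 31 tested probe sets of the SIN3 complex, 0 of 23 of NuRD, 0 of 20 of CoREST, 0 of 8 of the sirtuins, 0 of 64 of the partners and kinases of class IIa deacetylases and 0 of 13 of the repressors that recruit NCOR were called, against 0.893% of all tested probe sets. An unadjusted p under 0.05 was reached by 0 of the SIN3 (0%), 2 of the NuRD (8.70%), 3 of the CoREST (15.0%), 1 of the sirtuin (12.5%), 2 of the partner (3.12%) and 1 of the repressor probe sets (7.69%), against 9.85% of all tested probe sets. The shares of SIN3, NuRD, the partners and the repressors were below that of all probe sets. The 2 in the partner list were chosen for naming after their values were seen. One was Mef2d 1434487_at, of a transcription factor bound by class IIa deacetylases, at -0.27 (SE 0.09, limma adjusted p = 0.233). The other was Prkd2 1434333_a_at, of a kinase that phosphorylates them, at -0.30 (SE 0.10, adjusted p = 0.253). The remaining tested probe sets changed by -0.06 and -0.07 for Mef2d and by -0.25 and -0.21 for Prkd2. The opposing acetyltransferases had 2 lower calls among 26 probe sets, both of Crebbp.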

How the data were processed

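The authors' deposited table holds log2 intensities for 45101 probe sets in 14 arrays, for which the submitters' processing notes name RMA without a version. Per the labels' protocols, 25 ng of RNA per mouse was amplified and 3.75 ug of cDNA labelled. RMA normalises arrays to a common distribution and compresses changes of dim probe sets. Probe sets were named from the platform annotation with symbols checked against RefSeq by gene identifier (34754 of 34958 single-gene probe sets matched, 0 symbols changed). Of 45037 non-control probe sets, 22518 with a mean above 6.43 were tested in R 4.3.3 by limma 3.58.1, with group and sex as terms of lmFit followed by eBayes. The fit was tested on simulated data. The members and gene lists were chosen with earlier results of these data known. By the naming rule all members are named, with Crebbp, Ep300, fixed NCOR and deacetylase genes, list genes called in a comparison, and the 5 genes most and 3 least correlated with the member of smallest trend p. Alternatives were the filter, gene-level testing, normalisation, covariates, females alone, limma options, array weights, the threshold and leaving out each array.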

Additional observations from a re-analysis of the deposited data

Results flagged for a closer look

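In each genotype, each member probe set was examined for 1 mouse standing apart, by the gap to its nearest neighbour as a share of the group's range (57 groups, where chance gives about 1 in 20). This marked 6. KO 3 was lowest on Tbl1xr1 1442312_at (0.783) and on Tbl1xr1 1455109_at (0.734). WT 4 was highest on Hdac3 1426437_s_at (0.887) and on Hdac5 1415743_at (0.891). HET 4 was highest on Tbl1xr1 1434839_s_at (0.769) and on Tbl1xr1 1450739_at (0.712), at 9.36, against 9.09 to 9.17 in the other HET mice. The other values of these mice, and results without KO 3 and WT 4, stand with each gene.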

How the results depend on the processing

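The count of called member probe sets stayed at 0 in KO against WT, HET against WT, KO against HET and males against females under every alternative run, including each fit that left out 1 array. For the trend over floxed alleles it was also 0 in each of those fits that left out 1 array, but 1 (Hdac7 1420813_at) with 1 probe set per gene and 1 (the same probe set) at an adjusted p of 0.10. The first of these tested 10225 genes and called 311 of them in the trend. The filter at the 75th percentile tested 11259 probe sets and called 162. Why Hdac7 1420813_at passed at the gene level was not tested. Over its 24 alternatives the limma adjusted p of that trend ran from 0.0452 to 0.468. The KO changes of Hdac7 and of Hdac5 were negative in every alternative, from -0.34 to -0.20 for Hdac7 1420813_at, from -0.32 to -0.18 for 1420812_at and from -0.47 to -0.11 for Hdac5, and those of the 3 Hdac4 probe sets were positive in every alternative. Those of both Hdac9 probe sets and of Tbl1xr1 1422761_at, 1434839_s_at and 1455109_at were negative in every alternative. The sign turned in at least 1 alternative for the other 7, with ranges of -0.11 to 0.01 for Hdac1, -0.11 to 0.05 for Hdac3, -0.20 to 0.25, -0.18 to 0.20 and -0.05 to 0.23 for Hdac2 1439704_at, 1445684_s_at and 1449080_at, -0.996 to 0.38 for Tbl1xr1 1442312_at and -0.25 to 0.11 for 1450739_at.

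Calls over all 22518 probe sets in KO against WT were 201, but 309 without the sex covariate, 112 with the filter at the 75th percentile, 46 with only those 2 groups, 15 in females alone and from 94 to 223 with 1 array left out, the lowest counts, 94 to 117, being those without WT 1, WT 2, WT 3 or WT 4. In the trend they were 263, but 401 without sex, 162 with the stricter filter, 153 with array weights, 18 in females alone and from 150 to 255 with 1 array left out, lowest without WT 4. In KO against HET they were 0, but 27 at the gene level, 7 without sex and up to 8 with 1 array left out. There they were also 4 with the replicate number as a block, 3 with only those 2 groups and 1 with quantile normalisation repeated. In HET against WT they were 0, but 4 with array weights. With the stricter filter, with the replicate number as a block and without KO 3 they were 1 each. Between males and females they were 11, but 23 without a filter, and 3 at the gene level and with the stricter filter. At an adjusted p of 0.10 they were 385 in KO against WT, 487 in the trend and 14 in KO against HET. Replicate numbers recur across genotypes. Deviations of same-numbered arrays from their group means had correlations from -0.178 to 0.438, with 10 of 13 pairs over 0.1. Pairs with different numbers were not examined, so whether the numbers mark a shared factor was not tested. The fit with the replicate number as a block called 0 member probe sets in each of the 5 comparisons, and 159 probe sets in all in KO against WT. The number of arrays limits the precision.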

Other observations

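The CoREST complex, in which RCOR scaffolds join HDAC1 and HDAC2 with the demethylase KDM1A, had positive changes in KO against WT for 17 of 20 tested probe sets, with a median of 0.11, against 49.5% positive and a median of -0.0016 over all tested probe sets. None was called. In males against females, 16 of the 20 were positive, against 57.7% of all, with a median of 0.11, against 0.020. An unadjusted p under 0.05 between the sexes was reached by 4 (20%), against 6.61% of all. Males made up 3 of 5 KO and 1 of 4 WT mice. Sex was a covariate of the fit, and its further part in the KO changes was not tested. Several of the 20 probe sets share a gene, so their values are not independent. In KO against WT all 5 tested probe sets of the scaffold gene Rcor3 were positive. The 2 largest were 0.53 (SE 0.15, limma adjusted p = 0.136) on 1444364_at and 0.41 (SE 0.12, adjusted p = 0.181) on 1425352_at. Phf21a, a histone-binding subunit, had 4 positive probe sets, led by 0.28 (SE 0.10, adjusted p = 0.314). Of the sirtuins, deacetylases of another family, Sirt5 differed most, by 0.45 (SE 0.15, adjusted p = 0.237), and of NuRD the subunit gene Mta3, expressed in germinal centre B cells, by -0.37 (SE 0.11, adjusted p = 0.150). These genes were chosen after their values were seen.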
